A study of Homo sapiens with 6 samples.

Results

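The genes described here are 40 named targets of the hypoxia-inducible factors (HIFs) that act outside glycolysis, out of the 58735 genes in the deposited expression table. They were picked by name for roles in pH control, mitochondria, glycogen, lipid storage, growth restraint, protein folding, signalling and turnover, with the change between siPSCA and NC in these same libraries already known. Their fold changes are therefore a description and are not tested as a group. Of the 40 genes, 36 averaged 1 FPKM or more across the 6 libraries, and NDUFA4L2, PPP1R3C, TXNIP and STC1 did not. FPKM is the number of fragments on a gene divided by its length and by the library total, so levels of different genes can be set side by side on this scale.

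RNA was sequenced from HCT116SCs, stem-like cells sorted as CD44+CD326+ from the human colorectal cancer line HCT116 and grown as tumor spheres in serum-free medium with EGF, bFGF and B27. The NC group (3 libraries, genotype labelled WT) received a negative control siRNA, and the siPSCA group (3 libraries, genotype labelled PSCA knockdown) received siRNA against PSCA, each with a liposomal reagent and each harvested at 48 h. The sources do not name which of the PSCA siRNAs was used for sequencing, and the titles of siPSCA 2 and siPSCA 3 carry other numbers after HCT while their remaining labels read HCT116. No library was labelled as kept in low oxygen, and nothing says that the libraries of a group came from separate cultures, so a p-value measures only the spread between these libraries.

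HIFs are transcription factors made of an oxygen-labile alpha subunit, HIF-1α or HIF-2α, and the stable partner ARNT. With oxygen present, the EGLN prolyl hydroxylases mark the alpha subunit, the VHL ubiquitin ligase binds the mark, and the proteasome degrades it. When the alpha subunit persists, the dimer binds a short DNA core, ACGTG or GCGTG, and raises genes that shift glucose use, dispose of acid, remove mitochondria, store glycogen and lipid, and send signals to vessels. In colorectal tumors several of these targets, such as CA9, are widely used as markers of poorly oxygenated tissue.

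PSCA itself was close to the limit of detection. It had 4, 12 and 15 reads in NC 1, NC 2 and NC 3 and 9, 9 and 7 reads in siPSCA 1, siPSCA 2 and siPSCA 3, so the groups overlapped. Its level was 0.340 ± 0.185 FPKM in NC against 0.269 ± 0.0448 FPKM in siPSCA (SD, n = 3 each), and the log2 fold change was -0.07 (SE 0.12, adjusted p = 0.728 from limma over 34391 genes with a read). A reduction of the targeted transcript was not detectable at this depth, and the groups below are those of the labels.

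Depth was similar in all libraries, at 16145977 to 16884838 reads on genes in NC against 16099716 to 17302219 in siPSCA. All 7 markers of colorectal epithelium and of the sort (CD44, EPCAM, CDH1, KRT8, KRT18, KRT19 and CDX2) averaged 1 FPKM or more, with a summed FPKM of 807 to 868 in NC and 861 to 890 in siPSCA. KRT8 and KRT19 make up much of that sum, and single markers moved in opposite directions in limma. CD44, which was used in the sort, fell from a mean of 82.6 to 60.7 FPKM (log2 fold change -0.44, SE 0.05) and CDH1 from 30.1 to 19.5 (-0.60, SE 0.06). CDX2 rose from 2.15 to 4.07 (0.70, SE 0.11), KRT8 (0.22) and KRT19 (0.25) rose as well, and EPCAM and KRT18 did not pass the threshold. With a trend on transcript GC content and length removed, CD44, CDH1 and CDX2 kept their calls and KRT8 and KRT19 lost theirs, and KRT18 passed the threshold downward. Of the 6 markers of blood, stromal, endothelial, muscle and glial cells only COL1A1 averaged 1 FPKM or more, and their summed FPKM was 4.34 to 6.63 in NC and 7.06 to 7.51 in siPSCA, with PTPRC at 0 to 7 reads. The part of these markers in the results was not tested. NC 3 lay apart from NC 1 and NC 2. It was the lowest NC library in 21 of the 36 genes and the highest in 14. In 10 of the 36, mostly of high GC content, it lay more than 20% below both others, which is given with their values. In bulk RNA, fewer cells that express a gene and less RNA per cell cannot be told apart.

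Most of these HIF targets were lower in siPSCA. Counted together, the 40 genes held 0.4995% to 0.510% of the reads in NC and 0.193% to 0.198% in siPSCA, and without NDRG1, the gene with the most reads, 0.275% to 0.276% against 0.137% to 0.140%. Of the 36 genes tested, 31 had a log2 fold change below 0 and 5 above. At an adjusted p under 0.05 in limma, 26 were lower, where 24.2% of the 13796 genes tested were, and 2 were higher, where 26.6% of all were. All 3 siPSCA libraries lay below all 3 NC libraries for 26 genes, against 30.8% of all genes tested, and above them for 3, against 33.7%. The median log2 fold change was -0.76, beside 0.01 over all genes tested, and 15 of the 36 (41.7%) lay below -1, beside 252 of 13796 (1.83%). Because this contrast was known when the genes were picked, nothing is read from these counts.

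**Figure D1:**
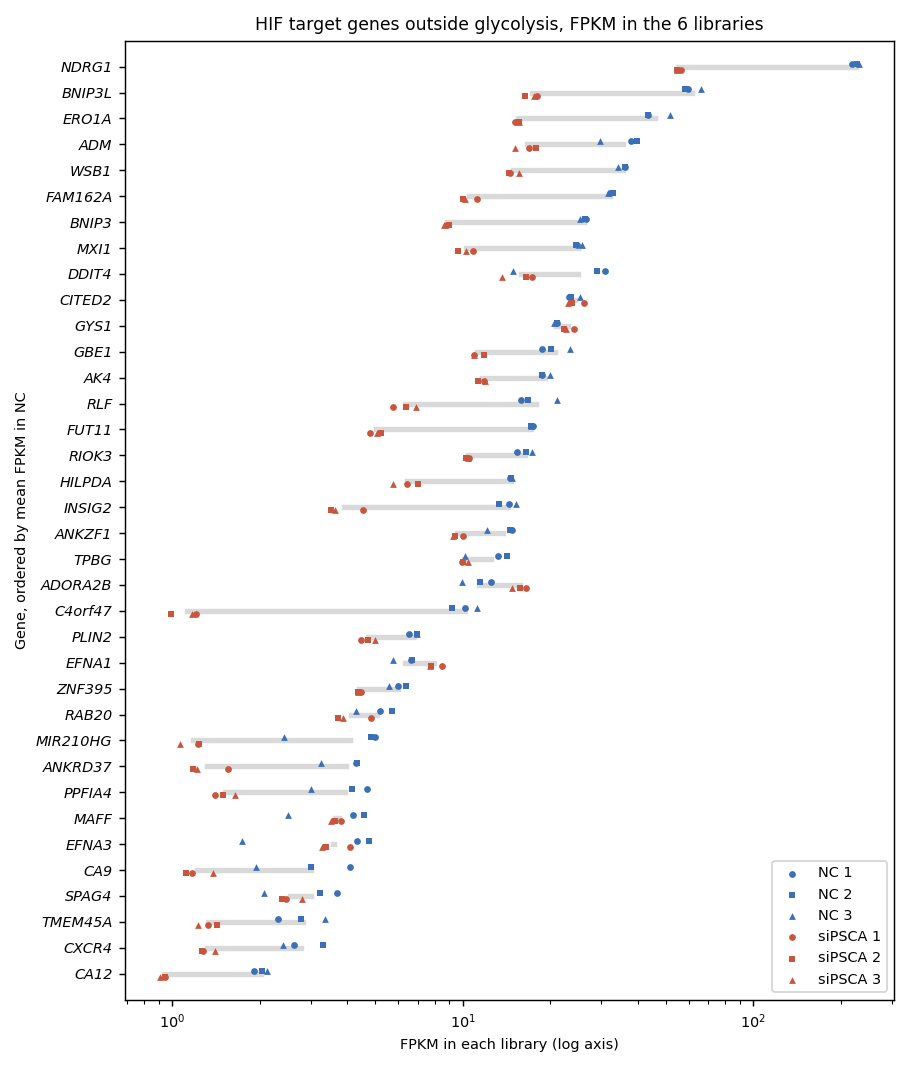
FPKM of the 36 HIF targets that averaged 1 FPKM or more, on a log axis, with genes ordered from top to bottom by their mean in NC. Each point is 1 library (blue NC, red siPSCA, shapes for replicates 1 to 3) and each grey bar joins the group means. NDRG1 stood highest in both groups, C4orf47 had the widest gap, and the points of the 2 groups mixed in 7 genes, among them DDIT4, MAFF and EFNA3, in which NC 3 lay below the other NC libraries.

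The DNA next to the start sites of 5 genes with large falls is shown here because it holds the core that HIFs bind. RefSeq promoter sequences (GRCh38.p14, 250 bases before to 50 after the transcription start) were found for 32 of the 40 genes, and not for ANKZF1, BNIP3L, HILPDA, NDRG1, RAB20, SPAG4, STC1 and ZNF395. ACGTG, read on both strands, lay in 22 of them (68.8%), where it lay in the promoters of 24.9% of 27305 genes. GCGTG lay in 24 (75.0%) against 40.6%. The palindrome CACGTG, which contains ACGTG on both strands, lay in 11 (34.4%) against 8.77%. Either core was present in 30 of 32 (93.8%) against 52.4%, and TMEM45A and TPBG were the exceptions. Among the genes called lower 20 of 21 held either core, and among the others 10 of 11 did. ACGTG alone lay in 17 of 21 and in 5 of 11, and GCGTG in 15 of 21 and in 9 of 11. The others include NDUFA4L2, PPP1R3C and TXNIP, which were too low to be tested, and no test of these differences was run. These shares were not matched for base composition, and a match of letters is a description of the window, not a binding site.

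The 5 promoters below belong to the called genes with the largest fold changes among those with a promoter found and a core in it. NDRG1 and BNIP3L fell more than INSIG2 but had no promoter to scan. Each promoter is written 5′ to 3′ on the strand of its gene. ACGTG and GCGTG, or CACGT and CACGC where the core lies on the opposite strand, are in capitals. The windows are chr4:185426004-185426303 (plus strand) for C4orf47, chr2:118088221-118088520 (plus) for INSIG2, chr10:73772026-73772325 (plus) for FUT11, chr3:122383932-122384231 (plus) for FAM162A and chr14:52695509-52695808 (minus) for ERO1A.
C4orf47: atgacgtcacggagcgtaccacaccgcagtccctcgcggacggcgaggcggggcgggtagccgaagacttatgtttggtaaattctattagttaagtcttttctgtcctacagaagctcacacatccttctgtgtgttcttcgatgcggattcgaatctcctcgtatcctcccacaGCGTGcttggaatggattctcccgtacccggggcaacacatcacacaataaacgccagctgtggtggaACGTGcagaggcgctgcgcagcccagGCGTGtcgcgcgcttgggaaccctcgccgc
INSIG2: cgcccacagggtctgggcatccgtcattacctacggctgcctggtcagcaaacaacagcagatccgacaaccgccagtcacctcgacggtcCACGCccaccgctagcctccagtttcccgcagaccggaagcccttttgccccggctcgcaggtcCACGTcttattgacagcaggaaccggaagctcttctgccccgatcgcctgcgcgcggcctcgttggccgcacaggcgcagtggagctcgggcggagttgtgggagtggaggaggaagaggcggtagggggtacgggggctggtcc
FUT11: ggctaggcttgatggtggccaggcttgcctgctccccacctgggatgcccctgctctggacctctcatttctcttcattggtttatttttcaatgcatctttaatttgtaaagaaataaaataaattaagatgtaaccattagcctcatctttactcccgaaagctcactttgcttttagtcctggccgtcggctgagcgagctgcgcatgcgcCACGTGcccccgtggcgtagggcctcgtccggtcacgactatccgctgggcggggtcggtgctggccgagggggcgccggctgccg
FAM162A: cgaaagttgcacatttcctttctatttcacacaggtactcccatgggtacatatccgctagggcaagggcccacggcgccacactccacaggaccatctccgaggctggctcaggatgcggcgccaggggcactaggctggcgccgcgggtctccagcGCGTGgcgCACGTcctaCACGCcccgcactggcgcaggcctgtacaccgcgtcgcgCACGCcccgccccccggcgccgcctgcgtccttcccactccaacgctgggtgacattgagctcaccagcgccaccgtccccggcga
ERO1A: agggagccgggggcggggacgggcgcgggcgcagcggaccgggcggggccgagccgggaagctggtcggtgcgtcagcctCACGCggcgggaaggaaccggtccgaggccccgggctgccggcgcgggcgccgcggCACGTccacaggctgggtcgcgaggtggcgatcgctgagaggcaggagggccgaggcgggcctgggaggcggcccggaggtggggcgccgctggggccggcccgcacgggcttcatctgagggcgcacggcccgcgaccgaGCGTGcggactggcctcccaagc
Counted from the start site, with negative positions before it, the C4orf47 window held ACGTG at -6 and GCGTG at -74 and 21. FUT11 held a single CACGTG whose first base lies at -36. FAM162A held 4 cores between -92 and -36, and ERO1A held 3, at -170, -114 and 28. INSIG2, for which RefSeq lists 2 start sites and the upstream one is shown, held 2 cores at -159 and -95, both on the opposite strand.

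Genes of pH control fell. CA9 encodes a carbonic anhydrase on the outer face of the plasma membrane, where it turns carbon dioxide into bicarbonate and acid. It lies on chromosome 9 from 35673856 to 35681159 and had an FPKM of 4.10, 2.99 and 1.95 in NC 1, NC 2 and NC 3 and of 1.17, 1.11 and 1.38 in siPSCA 1, siPSCA 2 and siPSCA 3. The siPSCA values were all below the NC values, of which NC 3 was the lowest, and the mean was 40.5% of that in NC. On the log2(FPKM + 1) scale used for all fold changes here, which understates the change of low genes, the log2 fold change was -0.82 (SE 0.20) and it was -1.02 without NC 3. CA9 was no longer past the threshold without siPSCA 1 (-0.80) or without siPSCA 2 (-0.78). In the GRCh38 gene models its exons share 38.5% of their bases with ARHGEF39 on the opposite strand, a gene with a log2 fold change of 0.21, and the strand setting of the counting is not given in the sources used here. CA12, a second membrane-bound carbonic anhydrase, had 1.90, 2.03 and 2.12 in NC and 0.946, 0.946 and 0.908 in siPSCA, again without overlap (log2 fold change -0.64, SE 0.08).

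All 3 genes tested in the mitochondrial group fell, with log2 fold changes from -1.77 to -1.47. AK4, an enzyme of the mitochondrial matrix that was grouped elsewhere, fell less (-0.67). BNIP3 and BNIP3L encode receptors on the outer mitochondrial membrane that tie mitochondria to the autophagy machinery. BNIP3 (chromosome 10 from 131966455 to 131982013) had an FPKM of 26.6, 26.4 and 25.4 in NC and 8.85, 8.94 and 8.63 in siPSCA. The replicates of each group differed by little, with a CV of 2.44% in NC and 1.82% in siPSCA, and the log2 fold change was -1.47 (SE 0.05). BNIP3L (chromosome 8 from 26382898 to 26505636), the second highest of these genes in NC, had 59.7, 58.5 and 66.2 in NC and 18.0, 16.3 and 17.6 in siPSCA. That is 28.1% of the NC mean, with a log2 fold change of -1.77 (SE 0.07). FAM162A (chromosome 3 from 122384176 to 122412334), a mitochondrial protein linked to cell death under low oxygen, had 32.2, 32.9 and 31.6 in NC and 11.2, 10.1 and 10.2 in siPSCA, which gave a log2 fold change of -1.53 (SE 0.06). BNIP3 has many processed pseudogenes, and of those listed only BNIP3P11 had a mean FPKM above 1 in NC, 1.18 against 2.27 in siPSCA. NDUFA4L2, which lowers the activity of respiratory complex I, stayed under the minimum with 17 to 29 reads per library and a level of 0.477 ± 0.102 FPKM in NC against 0.403 ± 0.0769 in siPSCA (SD, n = 3 each).

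In glycogen metabolism the branching enzyme fell and the synthase did not pass the threshold. GBE1 (chromosome 3 from 81489699 to 81762161), which adds the branches to glycogen, had 18.8, 20.2 and 23.5 in NC and 11.0, 11.8 and 10.9 in siPSCA. The groups were apart, NC 3 was the highest library, and the log2 fold change was -0.83 (SE 0.09). GYS1 (chromosome 19 from 48968125 to 48993310), the glycogen synthase of muscle and most other tissues, had 21.1, 21.1 and 20.7 in NC and 24.2, 22.3 and 22.7 in siPSCA. All siPSCA values were above all NC values, yet the log2 fold change of 0.13 (SE 0.05) did not pass the adjusted threshold. It was 0.16 and past the threshold upward in limma-voom on the recovered reads, and -0.27 and past it downward once a smooth trend on transcript GC content and gene length had been removed from each library. PPP1R3C, which brings protein phosphatase 1 to glycogen, was at 5 reads in NC 1, 1 read in siPSCA 1 and 0 in the other libraries, so no change could be detected.

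Lipid and sterol genes fell. HILPDA (chromosome 7 from 128455849 to 128458418), an inhibitor of the lipase that empties lipid droplets, had 14.5, 14.7 and 14.8 in NC and 6.45, 7.04 and 5.75 in siPSCA. Its NC libraries had a CV of 1.08%, and its siPSCA libraries lay far below them (log2 fold change -1.08, SE 0.07). PLIN2 (chromosome 9 from 19108375 to 19149290), a protein that coats lipid droplets, had 6.54, 6.95 and 6.95 in NC and 4.47, 4.70 and 4.99 in siPSCA, a smaller change without overlap (log2 fold change -0.45, SE 0.06). INSIG2 (chromosome 2 from 118088452 to 118110997), whose promoter is shown above, encodes a protein of the endoplasmic reticulum that holds the sterol sensor SCAP and the SREBP factors there. Its FPKM was 14.4, 13.4 and 15.2 in NC and 4.53, 3.53 and 3.63 in siPSCA, so the mean in siPSCA was 27.2% of that in NC. The log2 fold change was -1.65 (SE 0.09), the fourth most negative of the 36.

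NDRG1 had the highest level of all these genes. It lies on chromosome 8 from 133237171 to 133302022 and encodes a cytoplasmic protein that is strongly induced by low oxygen and restrains growth and spread in several cancers. The FPKM was 219, 228 and 232 in NC and 56.5, 54.7 and 54.7 in siPSCA, which is 226 ± 6.85 against 55.3 ± 1.06 (SD, n = 3 each). This 4.09-fold difference was far larger than the spread within either group, with CVs of 3.03% and 1.92%, and the log2 fold change was -2.01 (SE 0.04). It rested on 36102 to 39281 reads per NC library and 9396 to 9786 per siPSCA library.

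Transcription factors and other growth regulators were mixed. MXI1 (chromosome 10 from 110207605 to 110287365), a MAX partner that opposes MYC, had 24.8, 24.5 and 25.8 in NC and 10.8, 9.60 and 10.2 in siPSCA and fell (log2 fold change -1.21, SE 0.06). RLF (chromosome 1 from 40161373 to 40240921), a zinc finger protein, had 15.9, 16.8 and 21.1 in NC, where NC 3 was the highest, and 5.74, 6.40 and 6.91 in siPSCA (log2 fold change -1.36, SE 0.12). ZNF395 (chromosome 8 from 28345585 to 28402701), another zinc finger factor, had 6.003, 6.36 and 5.57 in NC and 4.47, 4.35 and 4.36 in siPSCA, without overlap but with a smaller log2 fold change of -0.37 (SE 0.06). The same-strand gene FBXO16 shares 34.9% of the exonic bases of ZNF395, so reads on that stretch cannot be assigned to one of the pair. CITED2 (chromosome 6 from 139371807 to 139374620), which competes with HIF-1α for the coactivators CBP and p300, had 23.3, 23.7 and 25.4 in NC and 26.1, 23.7 and 23.1 in siPSCA. These groups overlapped, and the log2 fold change of 0.01 (SE 0.06) changed sign to -0.04 both in TPM and after centring on the library median.

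DDIT4 and MAFF depended on NC 3. DDIT4 (chromosome 10 from 72273920 to 72276036), an inhibitor of the growth kinase complex mTORC1, had 30.9, 29.1 and 14.8 in NC 1, NC 2 and NC 3 and 17.4, 16.5 and 13.7 in siPSCA. NC 3 lay inside the range of the siPSCA libraries while NC 1 and NC 2 lay well above it, and the log2 fold change of -0.56 (SE 0.27) did not pass the threshold. Without NC 3 it was -0.88, and with the GC and length trend removed -0.91, both past the threshold. MAFF (chromosome 22 from 38200767 to 38216511), a small bZIP partner of NRF factors, had 4.18, 4.58 and 2.51 in NC and 3.80, 3.63 and 3.51 in siPSCA. The siPSCA values lay between NC 3 and the other NC values, with a log2 fold change of -0.01 (SE 0.17), of -0.21 without NC 3 and of -0.50 with the trend removed, the latter 2 past the threshold. TXNIP, which binds thioredoxin and limits glucose uptake, had 1 read in NC 3 and 0 in each of the other libraries.

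The oxidase and the nucleotide kinase fell. ERO1A (chromosome 14 from 52639916 to 52695900), whose promoter is shown above, oxidizes protein disulfide isomerase so that disulfide bonds can form in the endoplasmic reticulum. Its FPKM was 43.3, 43.3 and 51.6 in NC and 15.1, 15.7 and 15.6 in siPSCA. The siPSCA libraries were nearly equal, and the log2 fold change was -1.51 (SE 0.08). AK4 (chromosome 1 from 65147549 to 65232145), an adenylate kinase of the mitochondrial matrix, had 18.7, 18.7 and 20.0 in NC and 11.8, 11.3 and 11.9 in siPSCA (log2 fold change -0.67, SE 0.05). Near-identical copies of AK4 also carried reads, with a mean FPKM of 21.0 in NC and 9.83 in siPSCA for AK4P1 and of 3.25 and 1.92 for AK4P3, so the level of AK4 is uncertain.

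Signalling genes moved in both directions. Among the ligands, ADM (chromosome 11 from 10304680 to 10307397), which encodes the vessel-dilating peptide adrenomedullin, had 37.8, 39.7 and 29.6 in NC and 16.9, 17.8 and 15.1 in siPSCA. The groups were apart even with the lower NC 3 (log2 fold change -1.05, SE 0.12). EFNA1 (chromosome 1 from 155127460 to 155134857), a membrane-anchored ligand of Eph receptors, had 6.61, 6.67 and 5.76 in NC and 8.50, 7.76 and 7.72 in siPSCA and rose (log2 fold change 0.29, SE 0.07). This call was lost without siPSCA 1 (0.25) or siPSCA 2 (0.31), and the sign turned with the GC and length trend removed (-0.10, not past the threshold). EFNA3 (chromosome 1 from 155078872 to 155087538), a neighbour and relative of EFNA1, had 4.33, 4.75 and 1.73 in NC and 4.09, 3.39 and 3.28 in siPSCA. NC 3 was below and NC 1 and NC 2 were above every siPSCA library, and the log2 fold change of 0.06 (SE 0.28) became -0.28 without NC 3 and -0.42 with the trend removed, neither past the threshold. STC1, a secreted glycoprotein hormone, was nearly silent with 4 to 8 reads in each library.

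Of the receptors and surface proteins, CXCR4 fell and ADORA2B rose. CXCR4 (chromosome 2 from 136114349 to 136118165), the receptor of the chemokine CXCL12, had 2.62, 3.30 and 2.40 in NC and 1.28, 1.27 and 1.41 in siPSCA, with a mean of 47.4% of that in NC (log2 fold change -0.70, SE 0.11). It was among the lowest of the genes tested, at 48 to 128 reads per library. ADORA2B (chromosome 17 from 15944917 to 15975746), the low-affinity adenosine receptor, had 12.6, 11.5 and 9.94 in NC and 16.5, 15.7 and 14.8 in siPSCA. All siPSCA libraries were above all NC libraries, and the log2 fold change of 0.44 (SE 0.09) was the highest of the 36 and became 0.55 with the trend removed. TPBG (chromosome 6 from 82363206 to 82370828), the 5T4 surface antigen, had 13.2, 14.2 and 10.2 in NC and 9.91, 10.0 and 10.5 in siPSCA, and NC 3 lay within the siPSCA range. Its log2 fold change was -0.27 (SE 0.12), not past the threshold. It was past the threshold at -0.33 in TPM, at -0.32 after centring on library medians and at -0.40 without NC 3, and was 0.00 with the trend removed.

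Genes of ubiquitin transfer, kinase signalling and protein quality control all fell. WSB1 (chromosome 17 from 27294076 to 27315926), the substrate adapter of a ubiquitin ligase, had 36.1, 36.2 and 34.2 in NC and 14.6, 14.4 and 15.6 in siPSCA (log2 fold change -1.20, SE 0.05). RIOK3 (chromosome 18 from 23452823 to 23486603), an atypical kinase, had 15.4, 16.5 and 17.3 in NC and 10.5, 10.2 and 10.4 in siPSCA (log2 fold change -0.61, SE 0.06). ANKZF1 (chromosome 2 from 219229757 to 219236669), which releases unfinished peptides from stalled ribosomes, had 14.8, 14.5 and 12.2 in NC and 10.0, 9.40 and 9.29 in siPSCA (log2 fold change -0.48, SE 0.08). None of these groups overlapped, and WSB1 had the widest gap of them.

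C4orf47 had the largest fold change of the 36 genes. It lies on chromosome 4 from 185426249 to 185449826, is also named CFAP96, and encodes a protein found in cilia and flagella. The FPKM was 10.2, 9.21 and 11.2 in NC and 1.21, 0.989 and 1.17 in siPSCA, so 10.2 ± 0.985 fell to 1.12 ± 0.118 (SD, n = 3 each), or 11.0% of NC. Reads were 219 to 263 per library in NC and 24 to 29 in siPSCA. The log2 fold change was -2.40 (SE 0.09), and -3.13 from limma-voom on recovered reads, which adds less to low values. FUT11 (chromosome 10 from 73772291 to 73780251), a fucosyltransferase of the secretory pathway, had 17.4, 17.2 and 17.1 in NC and 4.80, 5.23 and 5.09 in siPSCA. Its NC libraries had the smallest spread of the 36 genes, a CV of 0.954%, and the log2 fold change was -1.60 (SE 0.05).

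ANKRD37 (chromosome 4 from 185396021 to 185400628), an ankyrin repeat protein encoded near C4orf47, had 4.29, 4.34 and 3.24 in NC and 1.56, 1.18 and 1.21 in siPSCA (log2 fold change -1.09, SE 0.12). UFSP2 on the opposite strand shares 35.2% of the exonic bases of ANKRD37 and also fell (log2 fold change -0.46). PPFIA4 (chromosome 1 from 203026498 to 203078740), a liprin that scaffolds synaptic and adhesion complexes, had 4.67, 4.17 and 2.996 in NC and 1.41, 1.496 and 1.64 in siPSCA (log2 fold change -0.96, SE 0.14). For both genes NC 3 was the lowest NC library and still lay above every siPSCA library. TMEM45A (chromosome 3 from 100492619 to 100577444), a transmembrane protein, had 2.32, 2.76 and 3.34 in NC, with NC 3 the highest, and 1.33, 1.42 and 1.22 in siPSCA (log2 fold change -0.70, SE 0.12). SPAG4 (chromosome 20 from 35615892 to 35621049), a nuclear envelope protein with a SUN domain, had 3.69, 3.23 and 2.07 in NC and 2.45, 2.39 and 2.79 in siPSCA. RAB20 (chromosome 13 from 110523066 to 110561733), a small GTPase of endosomes, had 5.17, 5.71 and 4.28 in NC and 4.83, 3.71 and 3.87 in siPSCA. In SPAG4 and RAB20 the groups overlapped, with log2 fold changes of -0.15 (SE 0.16) and -0.24 (SE 0.12) that did not pass the threshold. Without NC 3 they were -0.33 and -0.33, and with the trend removed -0.65 and -0.53, all 4 past it.

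The non-coding transcript MIR210HG, the host of the hypoxia-induced microRNA miR-210, lies on chromosome 11 from 565660 to 568457. It had 5.000, 4.82 and 2.43 in NC and 1.22, 1.24 and 1.06 in siPSCA. Every siPSCA library was below NC 3, which itself was far below NC 1 and NC 2, and the log2 fold change was -1.18 (SE 0.22) with NC 3 and -1.44 without it. The mature microRNA was not measured by these libraries.

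**Figure D2:**
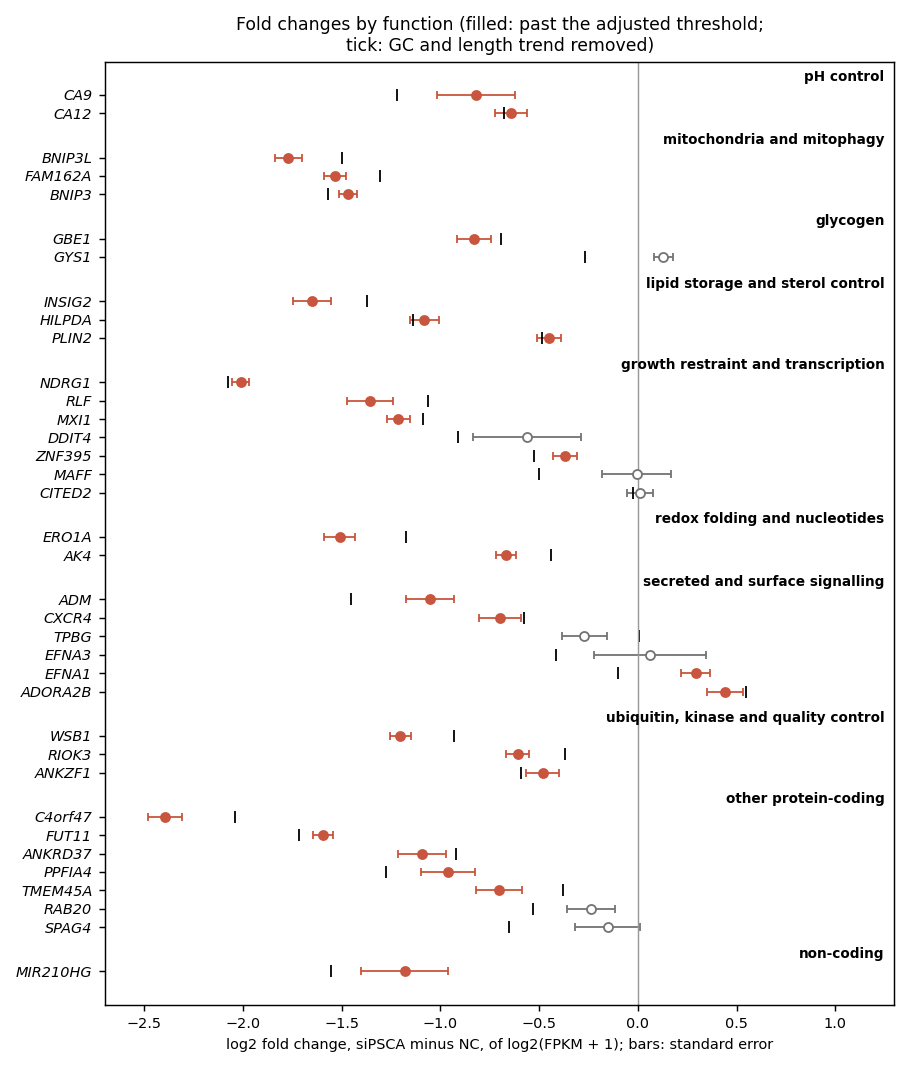
Log2 fold change of siPSCA against NC on the log2(FPKM + 1) scale for the 36 HIF targets, grouped by function, with bars of 1 SE. Filled points passed the adjusted threshold, open points did not, and black ticks give the fold change with the GC and length trend removed. The genes of the mitochondrial group, which leaves out AK4 (-0.67), lay between -1.77 and -1.47. The signalling group spread from -1.05 to 0.44 and held both genes called higher.

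The change of these genes followed their base composition, as it did over all genes. NC 3 was more than 20% below both other NC libraries in CA9, DDIT4, MAFF, ADM, EFNA3, TPBG, SPAG4, PPFIA4, ANKRD37 and MIR210HG. These 10 had a median transcript GC content of 58.7%, against 43.9% for the other 26, and TPBG (40.9%) and ANKRD37 (42.1%) were the ones among the 10 with a low GC content. Across the 36 genes, which share the same 6 libraries and are not independent, fold change and GC content had a Spearman correlation of 0.514, beside 0.664 across all 13796 genes tested. After removal of the trend the correlation across the 36 was 0.0981 and 31 of them were called lower and 1, ADORA2B, higher. Over all genes 5465 were called in either direction in that refit, against 7001 in the main fit. The median log2 fold change of the 36 was -0.80 with the trend removed, and -0.83 without NC 3. The GC-poor genes BNIP3L, FAM162A, INSIG2, RLF, ERO1A and WSB1 had smaller falls after removal (FAM162A from -1.53 to -1.31, ERO1A from -1.51 to -1.18). The GC-rich CA9, ADM and MIR210HG had larger ones (CA9 from -0.82 to -1.22, ADM from -1.05 to -1.45, MIR210HG from -1.18 to -1.56). Fold change and mean FPKM in NC had a Spearman correlation of -0.450 across the 36. The NC values enter both quantities, and this scale understates the change of low genes. A negative value can arise from that alone, so nothing is read from it.

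Genes of the oxygen-sensing machinery upstream were called in both directions, at shares close to those over all genes. Of 14 HIF pathway genes tested, 4 were lower and 3 higher in siPSCA at an adjusted p under 0.05 in limma (28.6% and 21.4%), beside 24.2% lower and 26.6% higher over all genes tested, with a median log2 fold change of -0.02. HIF1A, which encodes HIF-1α, was at 65.1 ± 3.75 FPKM in NC against 67.9 ± 3.47 FPKM in siPSCA (SD, n = 3 each). The log2 fold change of HIF1A was 0.06 (SE 0.06, adjusted p = 0.447 from limma), and 0.37 and past the threshold with the trend removed. The hydroxylases EGLN1 and EGLN3, which are themselves HIF targets, had the largest falls. EGLN1 went from 16.5 ± 0.183 to 8.35 ± 0.524 FPKM (SD, n = 3 each), and its log2 fold change was -0.91 (SE 0.06, adjusted p = 0.000392 from limma). EGLN3 had a log2 fold change of -0.89 (SE 0.10, adjusted p = 0.0017 from limma). The largest rises were those of ARNT2, at 0.36 (SE 0.08, adjusted p = 0.0142 from limma), and of the VHL partner ELOB, at 0.27 (SE 0.08, adjusted p = 0.0299 from limma). ELOB was at -0.13 and not past the threshold with the trend removed.

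The 21 glycolytic targets of HIF had the lowest median of the comparison lists. Of these 16 were lower (76.2%) and 1 higher (4.76%), beside 24.2% lower and 26.6% higher over all genes tested. Their median log2 fold change was -0.61. ENO2, the neuronal enolase, and the glucose transporter SLC2A3 fell most, by 2.21 and 2.19 on the log2 scale, and the lactate exporter SLC16A3 was the one that rose (1.03, SE 0.34, adjusted p = 0.0447 from limma). SLC16A3 was at 0.54 and not past the threshold with the trend removed. Both sets were known to change when they were picked, and the comparison is a description.

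Genes of the same pathways that are not among the 40 had medians from 0.00 to 0.32 by list, and are read beside the same 24.2% lower and 26.6% higher over all genes. With the GC and length trend removed the medians were -0.06 for mitophagy, 0.06 for glycogen, 0.08 for lipid droplet genes and 0.36 for carbonic anhydrases. Of 11 other mitophagy genes 4 were lower and 5 higher (median 0.21), with TAX1BP1 (-0.78) and OPTN (-0.44) the furthest below 0 and ULK1 (0.74) and SQSTM1 (0.69) the furthest above. Of 16 other glycogen genes 4 were lower and 6 higher (median 0.00), from PPP1R3B (-0.94) and PGM1 (-0.57) to GSK3A (0.61) and GAA (0.83). Of 11 other lipid droplet genes 0 were lower and 4 higher in limma (4 below 0 and 7 above, median 0.32), led by the lipase PNPLA2 (0.89) and the triglyceride synthase DGAT1 (0.72). At an unadjusted p under 0.05, and in limma-voom, 0 of these 11 were lower and 5 higher. With the GC and length trend removed 1 was lower and 3 were higher. Of 3 other carbonic anhydrases with enough signal, CA2, CA11 and CA13, all were above 0 and 0 passed the threshold in limma (median 0.19), 1 was higher at an unadjusted p under 0.05 and 0 were called in limma-voom, and CA2 and CA13 passed it upward with the trend removed. GAA and DGAT1 did not pass it with the trend removed, where they were at 0.22 and 0.12.

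Of 30 close relatives of the 40 genes tested, 13 were lower (43.3%) and 7 higher (23.3%), beside 24.2% and 26.6% over all genes, with a median log2 fold change of 0.03. ARRDC3, a relative of TXNIP, fell most (-1.72, SE 0.07, adjusted p = 0.000125 from limma), followed by INSIG1 (-1.23, SE 0.05, adjusted p = 9.42e-05 from limma), which shares with INSIG2 the retention of SREBP factors. MXD4 (1.01) and MAFK (0.89), relatives of MXI1 and MAFF, rose most. Against the genes they resemble, ERO1B fell with ERO1A (-0.94 against -1.51), whereas NDRG3 was at 0.04 (adjusted p = 0.693 from limma) against -2.01 for NDRG1. WSB2 was at 0.03 (adjusted p = 0.689 from limma) against -1.20 for WSB1. NDRG3 and WSB2 were chosen after their values were seen, as was ERO1B.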

How the data were processed

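RNA from 3 NC and 3 siPSCA libraries of HCT116SCs was analysed, with groups taken from the sample labels. The authors deposited one table of FPKM values per gene and library, made from RNA-seq reads; the genome build GRCh38 comes from the submitters' processing notes, and the aligner, the counting program and its strand setting are not given in the sources used here. Gene positions match GENCODE release 29 for all 58735 genes. FPKM times gene length gave whole reads for 100% of values (within 0.1 of a read), and these recovered reads show a depth of 16099716 to 17302219 reads on genes per library. Statements on read numbers cover counting error only.

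The linear model of limma 3.58.1 in R 4.3.3 (lmFit, eBayes with trend) was fitted to log2(FPKM + 1) with group as its one term, over the 13796 genes averaging 1 FPKM or more, 2-sided, with Benjamini-Hochberg adjustment and a threshold of 0.05. For a single gene, an exact permutation test of 3 against 3 libraries cannot give a p below 0.1 and was not used. The alternatives were a pseudocount of 0.1, other FPKM minimums, TPM, centring on library medians, limma-voom, removal of a trend on GC content and length (natural splines with 5 degrees of freedom per library, on the longest transcript), the replicate number as a block, stricter thresholds and leaving out each library. The fits were tested on simulated data. Python 3.11.15 with pandas 2.3.3 and matplotlib 3.10.9 was used for counts, promoters and plots.

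The 40 genes and the comparison lists were chosen with earlier results of these data known. All 40 genes are named, with values per library where they averaged 1 FPKM or more. Of each comparison list, up to 2 genes with the largest change past the threshold in each direction are named, and any others are named for their role or after their values were seen. Promoters were printed for the 5 called genes with the largest change that hold a HIF core and do not lie on chromosome 8.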

Additional observations from a re-analysis of the deposited data

How the results depend on the processing

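The 7001 genes called in all became 3434 at an unadjusted p under 0.05 with a log2 fold change beyond 0.5, 547 at an adjusted p under 0.05 with a change beyond 1, and 4627 (without siPSCA 1) to 7425 when 1 library was left out. The 26 HIF targets called lower became 15 beyond a log2 fold change of 1, 25 to 31 with 1 library left out, and 27 in TPM or after centring (TPBG in addition, at -0.33 and -0.32). Of these, 25 kept their call in each of the 14 refits that tested them, and CA9 lost it without siPSCA 1 or siPSCA 2. The 2 called higher became 3 in limma-voom (GYS1 in addition), 1 with the GC and length trend removed, 0 under either stricter threshold, and 1 to 2 with 1 library left out. The 67 calls in the comparison lists became 39 and 13 under the stricter thresholds and 45 to 68 with 1 library left out. The median log2 fold change of the 36 genes, -0.76, was -1.03 with a pseudocount of 0.1 and -0.97 in TPM. It was -0.81 after centring on library medians, -1.06 in limma-voom, -0.80 with the trend removed, and -0.83 to -0.75 with 1 library left out. With no FPKM minimum the genes under 1 FPKM joined the set, and the median was -0.68. With a minimum of 5 only 25 genes were left, and it was -1.05. The fold change of each single gene was the same under these other minimums as in the main fit. The signs that turned were those of small changes. MAFF was at 0.0017 with a pseudocount of 0.1, 0.0298 in limma-voom and -0.21 to 0.12 with 1 library left out. CITED2 was at -0.0358 in TPM, -0.0401 after centring, -0.0238 with the trend removed and -0.0401 to 0.0470 with 1 library left out, and EFNA3 at -0.28 to 0.26. With the trend removed GYS1 was at -0.27, EFNA1 at -0.10, EFNA3 at -0.42 and TPBG at 0.0049. TPM and centring moved the median of all genes by less than 0.1. Apart from the change in the set of genes under other FPKM minimums, the cause of these shifts was not tested.

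With the replicate number as a block, 6725 genes were called in all, with 27 of the HIF targets lower (DDIT4 in addition) and 2 higher, 66 in the comparison lists, and a median of -0.76. Deviations of same-numbered libraries correlated at 0.0955, 0.0132 and 0.134 for replicates 1, 2 and 3. Libraries of different numbers were not compared in this way, so these values cannot tell whether the numbers pair the libraries. Depth limits PSCA, NDUFA4L2, PPP1R3C, STC1 and TXNIP, all under 30 reads in each library.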

Other observations

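Within 100000 bases of the 36 genes tested lay 141 other genes with enough signal. At an adjusted p under 0.05 in limma 30 of them (21.3%) fell and 43 (30.5%) rose, beside 24.2% and 26.6% over all genes, and no test of the difference was run. They had a median log2 fold change of 0.11. Next to FUT11, SEC24C lies 130 bases away and rose (0.25, SE 0.05), and CHCHD1 (0.46, SE 0.06) and ZSWIM8 (0.45, SE 0.11) rose as well. CAMK2G (0.24) and AC022400.1 (0.45) rose too, AC022400.7 fell (-0.42, SE 0.13), and the others near FUT11 did not pass the threshold. DPYSL2, a neighbour of BNIP3L, rose (0.52, SE 0.05), and PPP2R2A near it did not pass. These neighbours were named after their values were seen, and their values with the trend removed are not given here.

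On chromosome 4, all 6 other genes tested within the same distance of ANKRD37 or C4orf47, a set named after its values were seen, were lower in siPSCA at the adjusted threshold. SNX25, a sorting nexin, had a mean FPKM of 12.2 in NC and 5.29 in siPSCA (log2 fold change -1.07, SE 0.06). LRP2BP, which lies 122 bases from ANKRD37, had 4.88 and 1.95 (-0.99, SE 0.06). The non-coding gene AC112722.1 had 5.96 and 2.31 (-1.08, SE 0.10). RF00019, within the span of UFSP2, had 1.86 and 0.173 (-1.26), with the largest SE of the 6 (0.30). Its level was low and its reads are not given here, so this fall is uncertain. UFSP2, a protease of the UFM1 system, had 8.84 and 6.04 (-0.46, SE 0.14), and PDLIM3 had 1.32 and 0.812 (-0.36, SE 0.10). Within the span of BNIP3, the non-coding genes AL162274.1 (-1.20, SE 0.17) and AL162274.2 (-0.94, SE 0.25) were lower too, and the strand of their reads is not known.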
